A study of Mus musculus with 2 samples.

Results

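The genes described here encode voltage-gated sodium and calcium channels and the potassium channels of all families, with their auxiliary subunits. They were chosen by symbol: every non-control probe on both arrays whose RefSeq accession maps to a symbol beginning with Kcn (without Kcnq1ot1), Scn and a number, Cacna, Cacnb or Cacng. The rule gave 137 genes, with 230 probes, of 23784 named genes on the array. Of these genes, 3 are noncoding RNAs named for the strand opposite a channel gene.

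The study compared mouse glioblastoma stem cells stably transduced with lentiviral Gli2 shRNA and cells that had received lentiviral non-target control shRNA. Both came from 1 line, grown as neurospheres from glioblastomas that the SB transposon had induced de novo, in neural stem cell medium free of serum (B27, N2, EGF, bFGF). Each group had 1 array, on the same slide and in the same scan, so that no value below has a replicate and no difference was tested. A difference is the log2 signal in Gli2 shRNA cells minus that in control cells, after each array was scaled to its 75th percentile, and the error beside it is that of the scanner software for the spots, which does not cover the cultures.

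Voltage-gated channels open when the membrane potential changes. Sodium channels (Scn) start the action potential, calcium channels (Cacna) couple depolarisation to calcium entry, and potassium channels (Kcn) return the membrane to rest or hold it there. Each pore-forming subunit works with auxiliary subunits that set its trafficking and gating. In brain the A-type and delayed rectifier potassium channels and the sodium channels are known mainly from neurons, whereas the inward rectifier Kcnj10 is the main potassium channel of astrocytes.

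Gli2, the gene targeted by the shRNA, had a processed signal of 57.9 in Gli2 shRNA cells and 98.1 in control cells. After scaling its level in Gli2 shRNA cells was 48.7% of that in control cells (log2 difference -1.04 ± 0.22, software error), and -0.64 after normexp background correction. All 6 neural stem cell markers examined were measured on both arrays and differed by -0.14 to 0.47. The 75th percentile used for scaling was a signal of 399 in Gli2 shRNA cells and 329 in control cells, so raw signals are higher on the Gli2 shRNA array at equal scaled level. In bulk RNA of this kind, fewer cells that express a gene and less RNA per cell cannot be told apart.

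Promoter windows of 300 bases, from 250 bases before to 50 bases after a gene's start, were taken from RefSeq (build GRCm38.p6) to show the sequence at the starts of genes past 2-fold. The first 4 belong to Kcnj4 and Kcna2, which were higher in Gli2 shRNA cells, and to Kcnd2 and Kcnk13, which were lower. Capitals mark matches on either strand to any of 6 motifs: the GLI site GACCACCCA, the left part TTCAGCACC and the right part GGACAGC of the site of the neuronal gene repressor Rest, the GC box GGGCGG, the cyclic AMP site TGACGTCA and the TATA box TATAAA.
Kcnj4, chr15:79505192-79505491, minus strand: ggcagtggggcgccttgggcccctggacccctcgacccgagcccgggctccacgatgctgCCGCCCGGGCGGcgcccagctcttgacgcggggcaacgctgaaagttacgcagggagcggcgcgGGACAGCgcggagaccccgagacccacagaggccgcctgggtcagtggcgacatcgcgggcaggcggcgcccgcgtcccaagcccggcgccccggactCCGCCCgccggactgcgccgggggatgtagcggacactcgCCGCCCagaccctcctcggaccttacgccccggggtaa
Kcna2, chr3:107101317-107101616, plus strand: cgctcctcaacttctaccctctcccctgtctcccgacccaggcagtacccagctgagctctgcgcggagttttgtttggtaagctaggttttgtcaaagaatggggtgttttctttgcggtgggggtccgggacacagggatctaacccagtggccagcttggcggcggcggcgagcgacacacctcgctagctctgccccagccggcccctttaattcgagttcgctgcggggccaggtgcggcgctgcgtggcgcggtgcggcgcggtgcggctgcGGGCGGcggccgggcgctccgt
Kcnd2, chr6:21215096-21215395, plus strand: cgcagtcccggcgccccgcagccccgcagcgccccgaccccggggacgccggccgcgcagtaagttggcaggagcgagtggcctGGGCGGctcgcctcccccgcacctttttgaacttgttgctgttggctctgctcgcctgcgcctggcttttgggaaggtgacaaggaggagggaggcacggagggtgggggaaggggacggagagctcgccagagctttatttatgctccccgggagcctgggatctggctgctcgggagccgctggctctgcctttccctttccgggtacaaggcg
Kcnk13, chr12:99964249-99964548, plus strand: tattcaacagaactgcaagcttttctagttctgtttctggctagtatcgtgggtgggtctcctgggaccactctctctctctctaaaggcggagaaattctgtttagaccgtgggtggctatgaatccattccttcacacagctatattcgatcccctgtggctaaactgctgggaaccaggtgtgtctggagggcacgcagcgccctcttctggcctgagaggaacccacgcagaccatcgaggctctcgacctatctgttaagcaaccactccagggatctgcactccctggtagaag

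Kcnj4 held 4 GC boxes and 1 match to the right part of the Rest site. Kcna2 and Kcnd2 held 1 GC box each, and Kcnk13 held none of these motifs. The channel genes past 2-fold on both arrays had 7 windows, and the GLI site was in none of them. It was in 2 of the 71 windows of channel genes measured on both arrays (2.82%) and in 83 of all 32851 windows (0.253%). The 2 windows belong to Cacnb4, a calcium channel beta subunit, and Scn4a, the sodium channel of skeletal muscle, with the site in capitals below.
Cacnb4, chr2:52675810-52676109, minus strand: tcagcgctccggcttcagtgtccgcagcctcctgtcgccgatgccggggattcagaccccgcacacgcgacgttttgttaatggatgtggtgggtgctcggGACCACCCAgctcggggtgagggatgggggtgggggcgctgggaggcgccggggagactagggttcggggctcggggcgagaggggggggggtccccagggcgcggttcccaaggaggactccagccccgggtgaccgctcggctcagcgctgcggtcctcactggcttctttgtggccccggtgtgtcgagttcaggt
Scn4a, chr11:106349341-106349640, minus strand: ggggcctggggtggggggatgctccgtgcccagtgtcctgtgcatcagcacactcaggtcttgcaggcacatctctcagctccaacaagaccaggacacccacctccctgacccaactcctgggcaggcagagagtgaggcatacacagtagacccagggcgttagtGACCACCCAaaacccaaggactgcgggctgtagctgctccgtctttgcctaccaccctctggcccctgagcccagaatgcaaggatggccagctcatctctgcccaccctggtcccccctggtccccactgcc

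Neither of these genes was past 2-fold: Cacnb4 differed by 0.28 ± 0.22 and Scn4a by -0.39 ± 0.24. GC boxes were in 52.1% of the windows of measured channel genes and in 35.7% of all windows. The right part of the Rest site was in 11.3% and 6.56%, its left part in 1.41% and 0.371%, and TATAAA in 7.04% and 13.6%. TGACGTCA was in none of the 71 windows and in 1.79% of all. The windows of measured channel genes were richer in G and C, with a median of 62.3% against 52.7% over all windows. All windows also include genes that were not measured. The motif shares were not adjusted for either, and the part of base composition in them was not tested. A match is a string of letters and not a shown binding site. Of the 72 channel genes measured on both arrays, 51 had a window, and Scn3b had none.

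Measured means that the scanner software marked the gene's brightest probe, by its mean over both arrays, as well above background. Of the 137 channel genes, 72 (52.6%) were measured on both arrays, against 61.2% of all named genes. A further 3 were measured in Gli2 shRNA cells only and 8 in control cells only. No probe of the remaining 54 was well above background on either array, among them Kcna1, Kcna3, Kcna4, Kcna5, Scn1a, Scn7a, Scn9a, Cacna1e and Cacna1f. The median signal of the channel genes measured on both arrays was 114 in Gli2 shRNA cells and 83.3 in control cells, against 845 and 686 over all named genes measured on both arrays.

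Among the 72 channel genes measured on both arrays, 7 (9.72%) were past 2-fold, a size rule that stands in for a test, against 3.63% of the 14563 named genes (528). They lie on 7 chromosomes: Kcna2 on 3, Kcnd2 on 6, Scn3b on 9, Kcnmb4os2 on 10, Cacng5 on 11, Kcnk13 on 12 and Kcnj4 on 15. In Gli2 shRNA cells 4 were higher (5.56%, against 1.84% of all genes) and 3 were lower (4.17%, against 1.79%). The lower genes include the noncoding Kcnmb4os2. Without the noncoding RNAs, a setting added later, 2 channel genes were lower. In that setting 8.57% of 70 channel genes were past 2-fold, against 3.62% of all genes. Counting only genes with both signals under 100, 3 of 34 channel genes (8.82%) and 6.04% of all genes were past 2-fold. With a signal of 100 or more on at least 1 array the figures were 4 of 38 (10.5%) and 3.04%. Kcna2 and Cacng5 reached 100 only on the Gli2 shRNA array, where they were higher, so this split depends on the difference itself. With a signal of 50 or more on both arrays, 8.0% of 50 channel genes and 2.41% of all genes were past 2-fold. The SD over genes of the log2 difference was 0.63 for channel genes and 0.42 for all named genes. The median difference of channel genes was -0.10, against 0.00 over all named genes. Of the channel genes 30 (41.7%) lay above 0 and 42 below, against 50.3% of all named genes above 0. Scaling by the array median would add 0.14 to every difference, which matters for genes close to 0.

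After normexp, which pulls the differences of dim probes toward 0, 3 of 71 channel genes (4.23%) were past 2-fold, against 1.15% of all genes. Kcnj4 (1.30), Cacng5 (1.01) and Kcnmb4os2 (-1.07) were these 3.

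**Figure D1:**
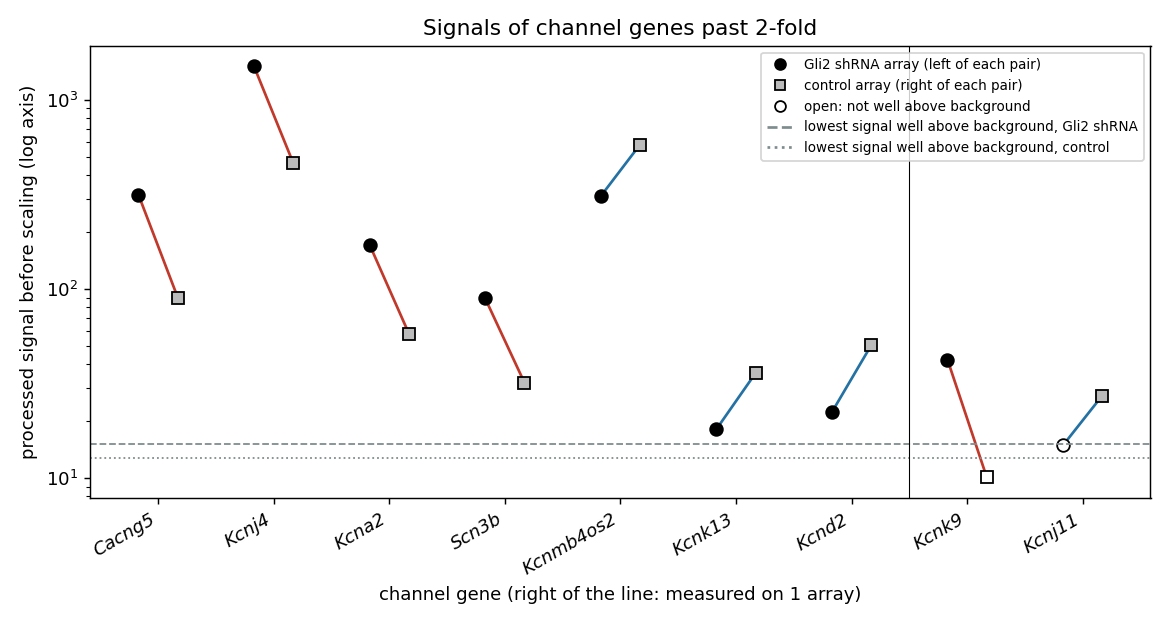
Processed signal before scaling (log axis) of the channel genes past 2-fold, with Gli2 shRNA cells as circles on the left and control cells as squares on the right of each pair, 1 array each. Open symbols were not well above background. Kcnj4 gave 1498 in Gli2 shRNA cells and 461 in control cells, while Kcnk13 and Kcnd2 lie near the lowest signals well above background (15.2 in Gli2 shRNA cells, 12.8 in control cells).

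The inward rectifiers (Kcnj), which hold the resting potential and carry potassium into cells, had 8 genes measured on both arrays, 4 on each side of 0. Kcnj4, an inward rectifier of neurons, had a signal of 1498 in Gli2 shRNA cells and 461 in control cells. Its level was 2.68-fold higher in Gli2 shRNA cells (1.42 ± 0.20). It was past 2-fold under each of the 8 other processing settings tried, between 1.30 and 1.56. The authors' values, the mean of probes and the filters on dim probes gave 1.42 again. They cannot move a bright gene with 1 measured probe. Kcnj12, of the same Kir2 group of strong rectifiers, had signals of 359 in Gli2 shRNA cells and 157 in control cells. Its difference of 0.91 ± 0.21 fell short of 2-fold, and its other probe gave 0.79. Kcnj2, a further gene of that group, differed by 0.29 ± 0.29. Kcnj14, also of that group, lay below 0 at -0.56 ± 0.22, so the Kir2 genes measured on both arrays did not share a sign.

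The glial inward rectifiers lay below 0 and short of 2-fold. Kcnj10, the potassium buffering channel of astrocytes, had signals of 834 in Gli2 shRNA cells and 1314 in control cells (-0.93 ± 0.20). Kcnj16, whose product assembles with that of Kcnj10, had 144 in Gli2 shRNA cells and 220 in control cells (-0.89 ± 0.21). Under the 8 other settings Kcnj10 lay between -0.95 and -0.80 and Kcnj16 between -0.91 and -0.64. Beside them, all 5 astrocyte markers measured on both arrays lay below 0 (-0.62 to -0.12, median -0.19). Of these, Aqp4 (-0.12 ± 0.21), Slc1a2 (-0.17 ± 0.21) and Slc1a3 (-0.19 ± 0.20) differed by less than their errors. Of the oligodendrocyte lineage markers measured on both arrays, 5 of 6 also lay below 0, with a median of -0.38. Gfap was measured in control cells only, and Gja1 on neither array. The summed signal of the 7 astrocyte markers was 7568 in Gli2 shRNA cells and 7188 in control cells, before scaling. Slc1a3 alone gave 7053 and 6640 of it. The part of the astrocyte and oligodendrocyte lineage markers in the Kcnj10 and Kcnj16 values was not tested.

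Other inward rectifiers were dim. Kcnj9, a G protein-gated subunit, differed by -0.71 ± 0.39, and its other probe, measured in control cells only, was at least 2.50-fold lower in Gli2 shRNA cells. Kcnj13 differed by 0.88 ± 0.38 at signals of 32.9 in Gli2 shRNA cells and 14.7 in control cells. That value depended on the processing and was -0.06 after normexp. Kcnj11, the pore of the ATP-sensitive potassium channel, was measured in control cells only (14.9 in Gli2 shRNA cells, 27.3 in control cells). It was at least 2.18-fold lower in Gli2 shRNA cells. It was the 1 of 8 channel genes measured in control cells only with a bound past 2-fold (12.5%, against 18.2% of all such genes), and its bound was -0.99 with median scaling and -0.46 after normexp.

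**Figure D2:**
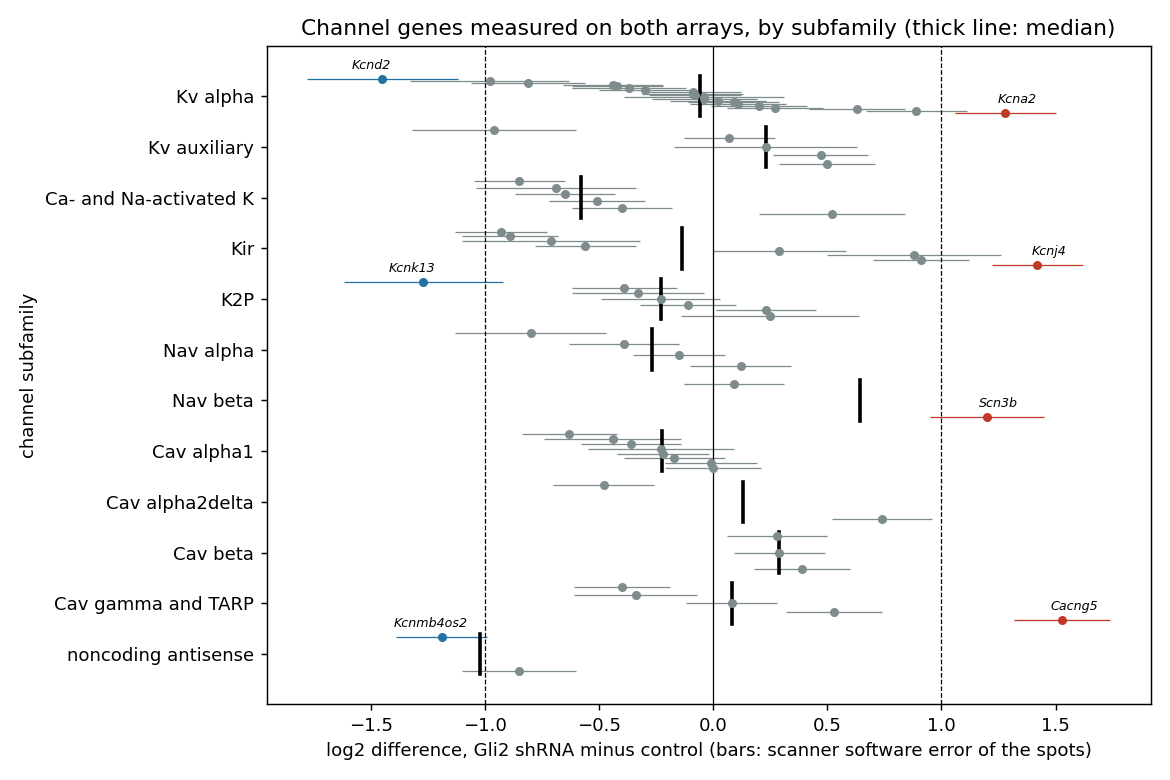
Log2 difference (Gli2 shRNA minus control) of the 72 channel genes measured on both arrays, grouped by subfamily; each point is 1 gene, each bar the scanner software error and each thick line the subfamily median. The inward rectifiers (Kir) spread from -0.93 to 1.42, whereas the pore-forming calcium channel subunits (Cav alpha1) lie between -0.63 and 0.00.

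The voltage-gated potassium channels (Kv) held 1 gene past 2-fold in each direction. Kcna2, a delayed rectifier of axons, had signals of 171 in Gli2 shRNA cells and 58.0 in control cells, and was 2.44-fold higher (1.28 ± 0.22). Kcnd2, the pore of an A-type current of dendrites, had 22.3 in Gli2 shRNA cells and 50.3 in control cells, and was 2.74-fold lower (-1.45 ± 0.33). After normexp these differences were 0.69 and -0.56. Each gene has 1 probe, so no second probe bears on them.

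The other A-type genes stayed within 2-fold. Kcnd3 differed by -0.42 ± 0.20 (3389 in Gli2 shRNA cells, 3755 in control cells) and by -0.23 on its other probe. Kcnd1 differed by -0.08 ± 0.20, and by 0.06 with median scaling. The Kcnip genes encode calcium sensors that bind the A-type pores. Kcnip3 differed by 0.07 ± 0.20, and its 3 probes lay between 0.07 and 0.21. Kcnip1 differed by 0.50 ± 0.21 and Kcnip2 by -0.96 ± 0.36 at signals of 20.1 in Gli2 shRNA cells and 32.2 in control cells.

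Among 20 coding Kv alpha genes measured on both arrays, 8 lay above 0 and 12 below, with a median of -0.06. Kcnv1, a silent subunit that modifies other Kv channels, differed by 0.89 ± 0.22, with signals of 151 in Gli2 shRNA cells and 66.9 in control cells. In the other direction Kcna6 differed by -0.98 ± 0.35 and the silent subunit Kcng1 by -0.81 ± 0.25. Kcnh4 differed by -0.30 ± 0.20. Just inside the 2-fold limit lay Kcna6, Kcnip2, Kcnj10 and Kcnj16 on the lower side, and Kcnj12, Kcnv1, Kcnj13 and Cacna2d1 (0.74) on the higher side.

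In the group formed by symbol for calcium- and sodium-activated potassium channels and their subunits, 5 of 6 genes measured on both arrays lay below 0. The median of the 6 was -0.58, and none was past 2-fold. Kcnmb4, the neuronal beta subunit of the large-conductance channel, had signals of 3316 in Gli2 shRNA cells and 4931 in control cells (-0.85 ± 0.20). Its other probe gave -0.91. All 4 genes of the small- and intermediate-conductance channels lay below 0: Kcnn3 at -0.69 ± 0.35, Kcnn2 at -0.65 ± 0.22, Kcnn4 at -0.51 ± 0.21 and Kcnn1 at -0.40 ± 0.22. The second measured probe of Kcnn4 gave -0.50 and that of Kcnn1 0.14. The member above 0 was Kcnu1, a sperm channel placed in the group by its symbol, at 0.52 ± 0.32.

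Kcnma1, the pore with which the Kcnmb4 product assembles, had no settled direction. Its brightest probe was measured in control cells only, at 16.4 in Gli2 shRNA cells and 15.5 in control cells. Another probe was measured in Gli2 shRNA cells only, at 43.1 against 2.63 in control cells, and was at least 2.78-fold higher there.

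The noncoding Kcnmb4os2, named for the strand opposite Kcnmb4, lies near it in the gene table with Kcnmb4os1 between them. Kcnmb4os2 had signals of 309 in Gli2 shRNA cells and 579 in control cells, and was 2.27-fold lower (-1.19 ± 0.20). It was past 2-fold under all 8 other settings, between -1.21 and -1.05. Of these, the authors' values, the mean of probes and the filters on dim probes gave -1.19 again. Kcnd3os, the corresponding RNA at Kcnd3, differed by -0.85 ± 0.25. Kcnmb4os1 was not well above background. The probes were named by accession, and their strand was not checked.

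The tandem-pore potassium channels (Kcnk) carry background current. Kcnk13, known as a channel of microglia, had signals of 18.1 in Gli2 shRNA cells and 35.9 in control cells, and was 2.40-fold lower (-1.27 ± 0.35; -0.52 after normexp). Of 6 microglia markers, Csf1r (-0.13) and Itgam (-0.07) were measured on both arrays, Aif1 and P2ry12 in control cells only, and Cx3cr1 and Ptprc on neither. Aif1 had 5.64 in Gli2 shRNA cells and 17.5 in control cells, and P2ry12 had 6.46 in Gli2 shRNA cells and 19.1 in control cells. The Gli2 shRNA signals were not well above background, so the bounds were at least 1.4-fold lower for Aif1 and 1.53-fold for P2ry12. The summed signal of the list was 5870 in Gli2 shRNA cells and 5127 in control cells, before scaling. Itgam alone gave 5413 and 4694 of it, so the sum says little about the other markers. The part of the microglia markers in the Kcnk13 value was not tested.

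Kcnk9, an acid-sensitive background channel, went the other way. It was measured in Gli2 shRNA cells only, at 42.3 against 10.1 in control cells, and was at least 2.73-fold higher there, 1 of 3 channel genes measured on that array only (33.3%, against 31.1% of all such genes). After normexp its bound was 0.35 on the log2 scale. The other Kcnk9 probe was not well above background on either array and pointed the other way, within its error (-0.80 ± 1.70). Kcnk4, a stretch-sensitive channel, differed by -0.11 ± 0.21 (0.03 with median scaling), Kcnk10 by 0.23 ± 0.22 and Kcnk15 by -0.39 ± 0.23. Over the 7 Kcnk genes measured on both arrays, 2 lay above 0 and 5 below.

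Among the sodium channel genes 1 was past 2-fold, an auxiliary subunit. Scn3b, a beta subunit that alters gating and cell adhesion, had signals of 89.0 in Gli2 shRNA cells and 31.9 in control cells, and was 2.30-fold higher (1.20 ± 0.25; 0.43 after normexp). Scn2b and Scn4b were not well above background. Scn8a, a pore of mature neurons and also found in glia, gave a bright signal on 1 probe (5793 in Gli2 shRNA cells, 5313 in control cells; -0.15 ± 0.20). Its other 3 probes gave 0.42, -0.41 and -0.65, so the gene has no settled direction.

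The remaining pores were dim. Scn2a differed by 0.12 ± 0.22, and by -0.06 after normexp. Scn3a, the pore of embryonic brain, differed by -0.80 ± 0.33 at signals of 22.4 in Gli2 shRNA cells and 32.1 in control cells.

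**Figure D3:**
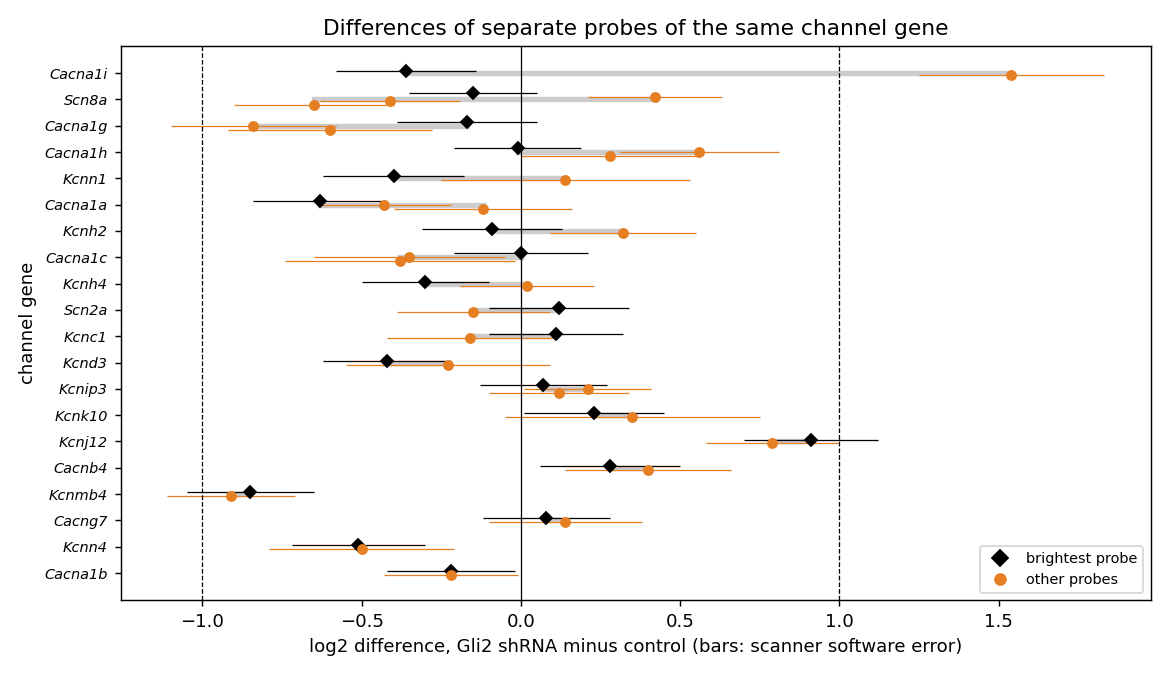
Log2 difference (Gli2 shRNA minus control) of each probe of the 20 channel genes with several probes measured on both arrays, with the scanner software error as bars; diamonds are the brightest probe of the gene. The probes of Cacna1i and Scn8a lie 1.90 and 1.07 apart with opposite signs, while those of Kcnmb4, Kcnj12 and Kcnn4 lie together.

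Separate probes of 1 gene gave a check within the arrays. Of the 20 channel genes with several probes measured on both arrays, 11 had every probe on the same side of 0 and 9 did not. The median distance between the highest and lowest probe of a gene was 0.28. None of the 7 genes past 2-fold is among these 20, because each has 1 probe measured on both arrays.

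By brightest probe, no pore-forming calcium channel gene was past 2-fold. The 8 measured on both arrays lay between -0.63 and 0.00, with a median of -0.22. Cacna1h, a low-voltage-activated channel, differed by -0.01 ± 0.20 (695 in Gli2 shRNA cells, 579 in control cells) and by 0.12 with median scaling. Its other probes gave 0.56 and 0.28, on the other side of 0, and the mean of its probes was 0.28. The presynaptic channel genes Cacna1b and Cacna1a differed by -0.22 ± 0.20 and -0.63 ± 0.21, and the 3 probes of Cacna1a lay between -0.63 and -0.12. Cacna1c, the main channel of the L-type current in heart and brain, differed by 0.00 ± 0.21, which median scaling would raise above 0, and its other probes measured on both arrays gave -0.35 and -0.38. Cacna1i had no settled direction: its 2 probes gave -0.36 ± 0.22 and 1.54 ± 0.29.

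The beta subunits carry calcium channel pores to the membrane. The 3 of their genes measured on both arrays lay above 0 and short of 2-fold: Cacnb3 at 0.29 ± 0.20, Cacnb1 at 0.39 ± 0.21 and Cacnb4 at 0.28 ± 0.22. Cacnb2 was measured in control cells only, at least 1.63-fold lower in Gli2 shRNA cells. Cacna2d1, the target of gabapentin, differed by 0.74 ± 0.22 with signals of 117 in Gli2 shRNA cells and 58.1 in control cells, and by 0.25 after normexp. Cacna2d2 differed by -0.48 ± 0.22.

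The Cacng genes include the TARPs, subunits that carry AMPA-type glutamate receptors to the membrane and set their gating. Cacng5, one of these, had the highest difference of the channel genes measured on both arrays, by brightest probe. Its signal was 314 in Gli2 shRNA cells and 89.9 in control cells, and it was 2.88-fold higher (1.53 ± 0.21; 1.01 after normexp). Cacng7, of the same TARP subtype, differed by 0.08 ± 0.20 (4819 in Gli2 shRNA cells, 3765 in control cells). Cacng8 differed by 0.53 ± 0.21, Cacng4 by -0.34 ± 0.27 and Cacng6 by -0.40 ± 0.21. Cacng2 was measured in control cells only.

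**Figure D4:**
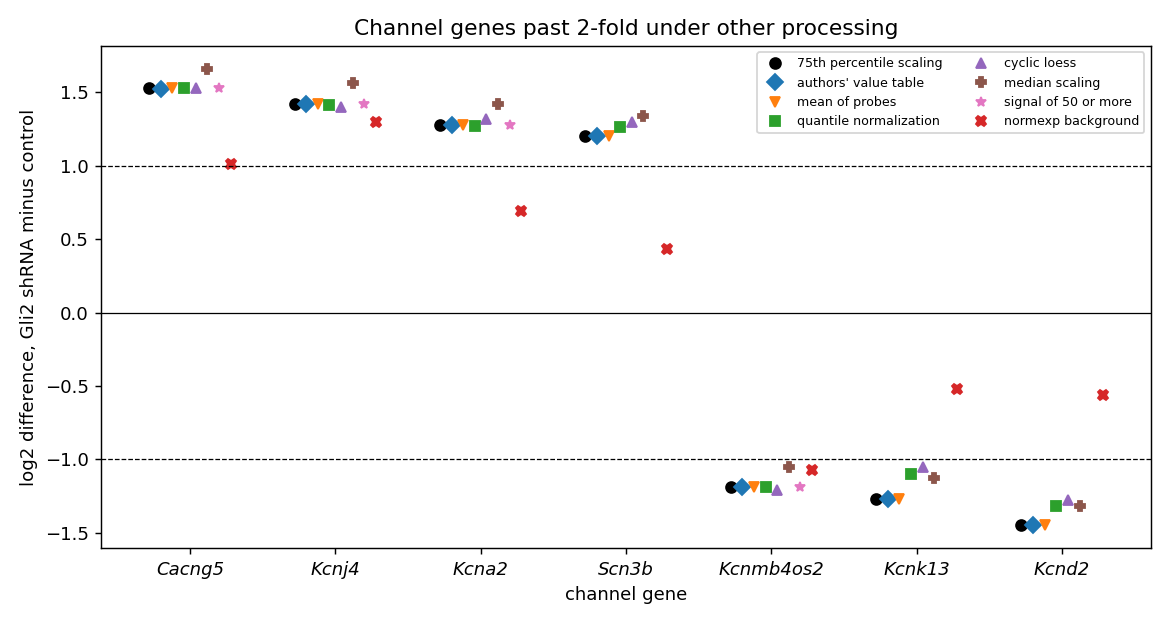
Log2 difference (Gli2 shRNA minus control) of the 7 channel genes past 2-fold under the scaling used here and 7 other settings; dashed lines mark 2-fold. Points missing for a setting were left out by its filter. Cacng5, Kcnj4 and Kcnmb4os2 lie past 2-fold throughout, and the other 4 lie inside it with normexp.

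Neuronal markers measured beside the channel genes were mixed. Of 8, 7 were measured on both arrays, 4 above 0 and 3 below, from -0.49 (Map2) to 0.82 (Syn1), and Stmn2 was not well above background on either. Their summed signal was 22195 in Gli2 shRNA cells and 23234 in control cells, before scaling. Map2 alone gave 16146 and 18672 of it. The part of the neuronal markers in the values of Kcnj4, Kcna2, Scn3b, Cacng5 and Kcnd2 was not tested. Markers of other cell types stayed within 2-fold where measured on both arrays: 6 of 8 oligodendrocyte lineage markers (-0.61 to 0.17), 2 of 5 endothelial markers (-0.48 and -0.04) and 2 of 5 mural cell markers (-0.28 and -0.19).

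Genes whose products bind or accompany these channels were listed with earlier results known. Of 46, 44 were matched and 32 measured on both arrays, with 19 above 0, 13 below and a median of 0.09. Past 2-fold, 2 of the 32 were higher and 1 was lower, against 1.84% and 1.79% of all named genes measured on both arrays. Values of these partners were not taken under the other processing settings. Stac2, which binds calcium channel pores, had signals of 161 in Gli2 shRNA cells and 24.9 in control cells, and was 5.32-fold higher (2.41 ± 0.27) on its 1 probe. Fgf11, of the group that binds sodium channel tails, was 2.62-fold higher (1.39 ± 0.21), with 1.06 and -0.27 on its other probes. Dpp10, an accessory subunit of the A-type potassium channels, was at least 8.46-fold higher, measured in Gli2 shRNA cells only (131 against 7.83 in control cells). Its other probe was not well above background. Of all named genes measured in Gli2 shRNA cells only, 31.1% had a bound of 2-fold or more.

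Cntnap2, which gathers Kv1 channels such as that of Kcna2 along axons, was 5.55-fold lower (-2.47 ± 0.31; 22.8 in Gli2 shRNA cells, 104 in control cells). Its other probe was not well above background on either array and pointed the other way, within its error (0.92 ± 1.02). Among the brightest of the list, Calm2 (0.18 ± 0.20) and the pacemaker channel gene Hcn2 (0.12 ± 0.20) differed by less than their errors. Rest, a repressor of many neuronal channel genes, differed by -0.42 ± 0.20, with signals of 584 in Gli2 shRNA cells and 646 in control cells.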

How the data were processed

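Total RNA of 2 samples was labelled with Cy3 and hybridised to 1-colour Agilent arrays (design 074809), per the labels' protocols and the file headers. The deposited scanner files hold processed intensity, its software error and flags from Feature Extraction 12.1.0.3, per the file headers. The authors' deposited value table is on a log2 scale; on each array it equals the log2 processed intensity minus 1 constant. Spots marked non-uniform or population outliers were left out (120 on the Gli2 shRNA array, 126 on the control array), no spot was saturated, and 56595 probes remained. A probe was measured when most of its spots were well above background, which held for 57.1% of probes on the Gli2 shRNA array and 59.5% on the control array. For a gene measured on 1 array, the dim array took the lowest signal well above background or the gene's own signal, whichever was higher (15.2 on the Gli2 shRNA array, 12.8 on the control array), giving "at least N-fold". The number of arrays limits the precision.

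Probes were named by RefSeq accession through the GRCm38.p6 gene table (34560 named, 22035 not), and the brightest probe stands for a gene. Members and lists were chosen with earlier results of these data known. Named genes are those past 2-fold, those with a 2-fold bound, the 3 brightest of each subfamily, those with discordant probes, the 4 nearest to 2-fold on each side and, of the channel partners, those past 2-fold and the brightest. Other genes are named for their role in a subfamily, after their values were seen. Some members are not reported here. Kcnd3os was placed with the noncoding RNAs. Alternatives were normexp (limma 3.58.1, offset 50, on median intensities because the files hold no mean intensity), median, quantile and cyclic loess scaling, 2 filters on dim probes, the mean of probes and the authors' table. The code recovered planted differences in simulated data. These were larger than 2-fold, in genes measured on both arrays, on a copy of the control array with less noise than the software error. The recovery checks the code and does not bear on the calls of single genes.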

Additional observations from a re-analysis of the deposited data

How the results depend on the processing

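Each of the 9 genes past 2-fold, by value or bound, kept its direction under every alternative that gave it a value. Of the 44 genes named by the rule, 38 did so, and Kcnd1, Kcnk4, Scn2a, Cacna1h, Cacna1i (0.59 with the mean of probes) and Kcnj13 changed sign under at least 1. The authors' table and, for genes with 1 measured probe, the mean of probes largely repeat the main values. A filter on dim probes leaves a value as it is or leaves the gene out, so these alternatives add little. The count of channel genes at least 2-fold higher (4) was 2 with normexp and 7 with median scaling, and the count lower (3) was 1 with normexp, 1 with a signal of 50 or more on both arrays and 14 without a filter on dim probes. Among genes with a signal of 100 or more on at least 1 array, an alternative chosen after seeing the data, 1 was lower. This gene, and the 1 left lower with normexp and with a signal of 50 or more, was the noncoding Kcnmb4os2. No coding channel gene was 2-fold lower under these settings. The count with a 2-fold bound (2) was 0 with normexp and 1 each with median scaling, quantile normalization and cyclic loess, also added later. Gli2 was at -0.64 with normexp. Median scaling raised the median of all genes by 0.14 and that of channel genes to 0.03. Higher genes were 50.8% of the calls over all genes, and 68.6% with median scaling, 58.8% with cyclic loess, 40.1% with normexp and 27.0% without the filter. No paired analysis was possible because each group has 1 array, and no replicate could be left out. Signals near background limit Kcnd2, Kcnk13, Scn3b, Kcnk9 and Kcnj11 and, of the channel partners, Stac2, Dpp10 and Cntnap2.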

Other observations

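Several channel genes lie next to one another in the gene table, with at most 2 genes between them. Of 20 such pairs, 8 had both genes measured on both arrays, and in 4 of these both genes lay on the same side of 0. Kcnj9 (-0.71) and Kcnj10 (-0.93) on chromosome 1 and Kcnd3os (-0.85) and Kcnd3 (-0.42) on chromosome 3 went the same way. Kcnj16 (-0.89) and Kcnj2 (0.29) on chromosome 11, and Cacng4 (-0.34) and Cacng5 (1.53) on the same chromosome, went opposite ways. Kcna2 on chromosome 3 (1.28) lies between Kcna3 and Kcna10, neither of which was well above background.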
